A study of Canis lupus familiaris with 32 samples.

Results

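In hip soft tissues of the dog, 85 of 24580 genes were detected in embryonic hip and nearly silent in every tissue sampled after birth. These genes, here called the embryonic genes, were chosen by their measured levels: a mean of at least 5 CPM (fragments of the gene per 1000000 fragments of the library) over the embryos, and a mean below 0.5 CPM in each of the 6 other groups. Most were of modest abundance in the embryos, and 29 were at least 5-fold higher in 1 of the 3 embryos than in each other one. The series measured RNA by sequencing, after removal of ribosomal RNA, in tissue around the hip joint of dogs with and without dysplasia. It held 32 libraries from 25 dogs. Embryonic hip came from 3 embryos and was labelled as neither capsule nor ligament, so age and tissue differed together from every later group. The other groups were hip joint capsule of 6 young dogs under 1 month, 5 adult controls and 4 affected dogs (1 adult and 3 aged 4 months), and teres ligament of 4 young dogs, 3 adult controls and 7 affected dogs (4 adult and 3 aged 4 months). Embryonic stage and litter are not given in the labels used here.

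The hip forms in the embryo from limb mesenchyme. Its cartilage models, the zone that becomes the joint cavity, the future capsule and ligaments, and the muscles, vessels and nerves around them arise side by side. Genes that pattern the limb and drive the first differentiation of these tissues are commonly transcribed in the embryo and shut down later, while the adult capsule and ligament consist mainly of fibroblasts in collagen-rich matrix. The files list genes by Ensembl identifier only, and 0 of these identifiers matched the reference table of gene names. No function can therefore be assigned to an embryonic gene here, and the defining markers of the labelled tissues could not be checked. The 2 highest embryonic genes are given by identifier and all others by their rank in mean embryonic CPM.

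The embryonic genes were mostly of modest abundance, with a few very abundant ones at the top. Their mean embryonic level ran from 5.06 to 291 CPM with a median of 9.27 CPM. Only 5 genes exceeded 100 CPM, 18 reached 20 CPM, and 44 lay between 5 and 10 CPM. Together the 85 genes took 0.159% of fragments in embryo 1, 0.163% in embryo 2 and 0.305% in embryo 3. The 5 highest genes supplied 60.8%, 59.3% and 36.5% of that sum in embryos 1, 2 and 3. Their summed level was close in the 3 embryos, at 967, 966 and 1110 CPM, so the larger total of embryo 3 came mainly from lower-ranked genes.

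ENSCAFG00000007233 was the highest embryonic gene, at 232, 256 and 384 CPM in embryos 1, 2 and 3 (mean 291 ± 81.5, SD, n = 3). After birth it had 11 fragments in 6 of 29 libraries. Of these, 6 fragments came from young capsules, 4 from affected ligaments and 1 from an affected capsule, while control capsules, control ligaments and young ligaments held 0. Its highest single library after birth was 1 affected ligament at 0.665 CPM, so no later library approached an embryo. Pooled over libraries, its share of fragments was 3960 times higher in embryos (95% counting interval 2210 to 7940).

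ENSCAFG00000011269 came next and ran the opposite way among the embryos, at 368, 272 and 199 CPM in embryos 1, 2 and 3 (mean 280 ± 84.8, SD, n = 3). It had 15 fragments in 9 of the 29 later libraries, with 0 in affected capsules and control ligaments. Its pooled ratio was 2770 (1680 to 4960). CPM does not correct for transcript length. Per length, this gene was the most abundant of the 85, at 181 ± 58.1 FPKM (fragments scaled to transcript length and library size, as deposited) against 134 ± 34.4 FPKM for ENSCAFG00000007233. Their values over the 3 embryos overlapped.

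The gene ranked 3 stood at 180, 212 and 213 CPM (101 ± 7.86 FPKM) and had 7 fragments in all later libraries. The gene ranked 4 averaged 139 ± 39 CPM (SD, n = 3) and the gene ranked 5 stood at 78.6, 101 and 134 CPM. All of these 5 leading genes were high in each embryo. The gene ranked 82 was the only member with 0 fragments after birth. It had 87 fragments in embryos, at 3.47, 4.53 and 7.55 CPM, which makes it at least 260-fold higher than a floor of 3 fragments over all 29 later libraries. These ratios use the values that chose the genes and are descriptions. Intervals and floors cover counting error only.

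**Figure D1:**
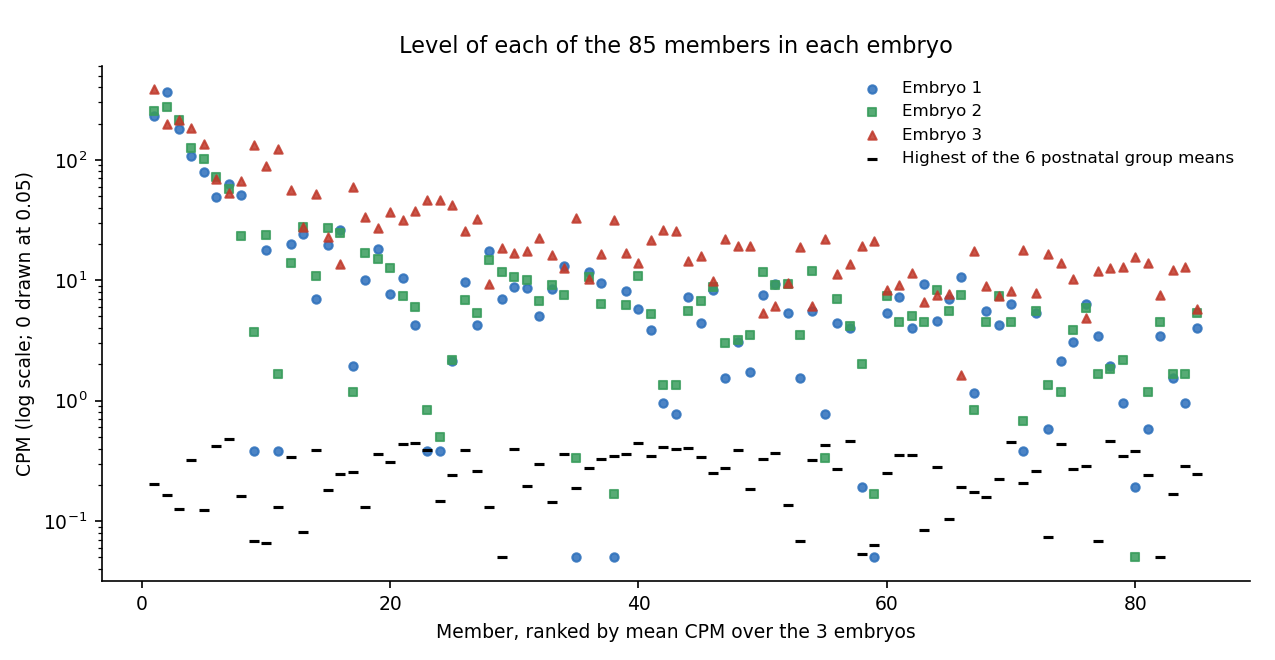
Each of the 85 embryonic genes on the x axis, ranked by its mean over the embryos, with its CPM in each embryo (coloured points) and its highest postnatal group mean (black dashes) on a log y axis. The 5 leading genes were high in each embryo, and further down embryo 3 lies above the others for many genes, with some of these as low in embryos 1 and 2 as after birth.

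The embryonic genes were not shared evenly by the 3 embryos, and embryo 3 carried a large part of the list. In 29 of the 85 genes, the level in embryo 3 was at least 5 times that in each other embryo. No gene of the list reached that fold in embryo 1 or in embryo 2. A further 28 genes lay within 2-fold across the embryos, and the remaining 28 fell between these patterns. The fold limits of 5 and 2 were set after the values had been seen. Embryo 3 was the highest embryo for 68 genes (80.0%), embryo 1 for 10 and embryo 2 for 7. Among all 11642 genes with an embryonic mean of at least 5 CPM, embryo 3 was the highest for 4708 (40.4%). Embryo 1 was the highest for 3234 of them and embryo 2 for 3700.

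The gene ranked 9 had 2, 22 and 738 fragments in embryos 1, 2 and 3, or 0.385, 3.69 and 133 CPM. Its ratio of embryo 3 to the other embryos pooled was 61.6 (95% counting interval 41.1 to 96.8). The gene ranked 11 had 0.385, 1.68 and 122 CPM, a ratio of 113 (64.5 to 220). Both passed the embryonic minimum through 1 embryo alone. The gene ranked 38 had 0 CPM in embryo 1, 0.168 CPM in embryo 2 and 31.4 CPM in embryo 3, which is 1 fragment in the first 2 embryos against 175 (ratio 351, 62.1 to 13900). These ratios compare single libraries, not conditions.

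Of the 29 genes weighted to embryo 3, 27 stayed below 5 CPM in both other embryos and 4 stayed below 0.5 CPM there, the limit used for the later groups. For 15 of the 29, at least 1 of embryos 1 and 2 was no higher than the highest later library. Every one of the 28 even genes was higher in each embryo than in every later library. Over the whole list the lowest embryo exceeded all 29 later libraries for 70 genes; the same held for 26.4% of the genes with an embryonic mean of at least 5 CPM, and nothing is read from that contrast because it chose the list.

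Summed over genes, the even set was steady, at 1300, 1320 and 1480 CPM in embryos 1, 2 and 3. The embryo 3 set summed to 35.1, 53 and 923 CPM. The intermediate set summed to 256, 251 and 644 CPM. Embryos 1 and 2 were close in the sums of the even and intermediate sets, while in the embryo 3 set embryo 2 was the higher of them. The total number of fragments was similar in the 3 libraries (5191430, 5956781 and 5565678), as was the number of genes with a fragment (16532, 16813 and 16832). Other genes at low levels moved the same way: the sum over 3934 genes that were low both in embryos (mean below 5 CPM) and after birth was 871, 1010 and 1760 CPM in embryos 1, 2 and 3. Per 1000 CPM of these low genes, the embryonic genes had 1830, 1610 and 1730 CPM in embryos 1, 2 and 3. The summed rise of the whole list in embryo 3 is therefore not read as particular to it. The share of the low genes weighted to embryo 3 is not given here. The part of the general rise of low genes in the embryo 3 set was not tested, and the labels used here give no stage or dissection of the embryos. In a bulk sample, fewer cells of a type and less RNA per cell cannot be told apart.

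**Figure D2:**
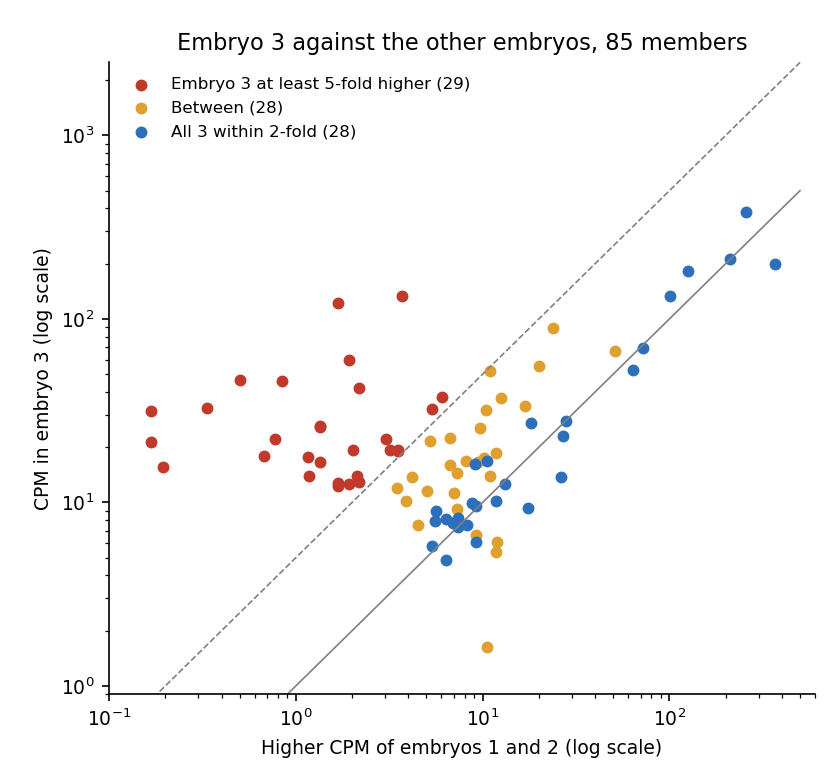
CPM in embryo 3 (y axis) against the higher of embryos 1 and 2 (x axis) for the 85 genes, on log axes. The solid line marks equal levels and the dashed line a 5-fold excess in embryo 3, above which 29 genes lie.

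Among all 11642 genes with an embryonic mean of at least 5 CPM, embryo 3 was at least 5-fold higher for 76, or 0.653%, against 34.1% of the embryonic genes. The matching background was 0.0172% for embryo 1 and 0.258% for embryo 2. Within 2-fold agreement across embryos held for 94.0% of those genes and for 32.9% of the list. At a matched embryonic mean of 5 to 10 CPM the excess in embryo 3 was seen in 19 of 44 embryonic genes and in 18 of 1546 other genes. At 20 CPM and above it was seen in 3 of 18 embryonic genes and in 13 of 7765 others.

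The share of genes weighted to embryo 3 fell with the level after birth. It was 6 of 77 genes where the highest later group mean lay between 0.5 and 1 CPM, 31 of 657 between 1 and 5 CPM, 6 of 3146 between 5 and 20 CPM and 4 of 7677 at 20 CPM or more. The 29 embryonic genes were thus 38.2% of all 76 genes weighted to embryo 3. The rule used the embryonic mean and the later group means, so the choice of genes itself shapes these shares. Of the 29, 27 were below 5 CPM in both other embryos and reached the minimum through embryo 3. The shares describe the 3 libraries and carry no test, since each embryo is a single sample.

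**Figure D3:**
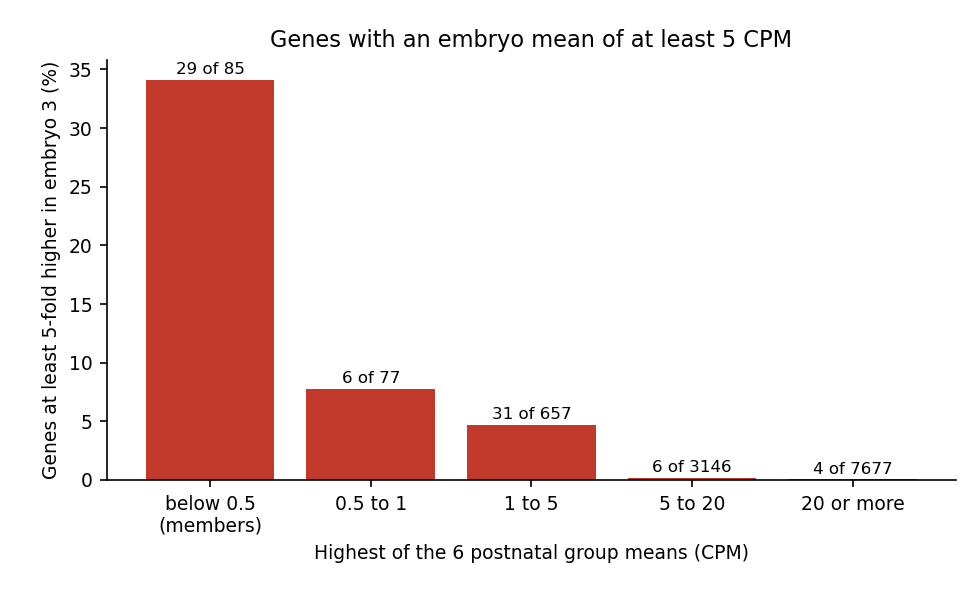
Percent of genes at least 5-fold higher in embryo 3 than in each other embryo (y axis), by the highest of the 6 postnatal group means (x axis), among genes with an embryonic mean of at least 5 CPM. The rule used the embryonic mean and these group means, so the bars are descriptions. Numbers above bars give genes counted of genes in the class; the bar of the 85 embryonic genes stands at 34.1% and the others at 7.79% or less.

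The rule was then applied with 1 embryo left out, and the level read in that embryo, which had no part in the choice. Without embryo 3, 53 genes were chosen, 50 of them among the 85. Of these 53, 48 (90.6%) reached 5 CPM in embryo 3. There 51 exceeded every later library, but the rule had capped the later group means, so nothing is read from that. Without embryo 1, 40.7% of the genes chosen (44 genes) reached 5 CPM in embryo 1. Without embryo 2, 107 were chosen, of which 49 (45.8%) reached 5 CPM in embryo 2. The share was thus higher in embryo 3 for the list drawn from embryos 1 and 2 than in the embryo left out for the lists that drew on embryo 3. No matching share over all genes is given here, so these shares are descriptions. At least 5 CPM in each of the 3 embryos was seen for 39 of the 85 genes (45.9%). It was seen for 94.7% of all 11642 genes with an embryonic mean of at least 5 CPM.

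After birth the embryonic genes were close to the limit of detection. A single fragment was worth 0.101 to 0.35 CPM, depending on the library. The 85 genes together had 34936 fragments in 3 embryonic libraries and 1545 in 29 later ones. A gene had a median of 16 fragments over all later libraries (range 0 to 45), spread over a median of 10 libraries. Only 2 genes reached 2 CPM in any later library, and 21 stayed below 0.5 CPM in every one. The gene ranked 44 reached 2.42 CPM, on 14 fragments, in 1 young capsule. The gene ranked 38 reached 2.44 CPM, on 11 fragments, in 1 affected ligament.

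Young capsule held the most residual signal. The summed level of the 85 genes was 14.2 ± 2.24 CPM (SD, n = 6) there, 9.29 ± 2.05 CPM (n = 5) in control capsule and 10.9 ± 2.04 CPM (n = 4) in affected capsule. In ligament it was 6.97 ± 1.02 CPM (n = 4) in young, 9.52 ± 3.55 CPM (n = 3) in control and 10.1 ± 5.7 CPM (n = 7) in affected dogs. The embryos stood at 1590, 1630 and 3050 CPM. Young capsules ran from 10.9 to 17.1 CPM and did not overlap with young ligaments, which ran from 5.96 to 8.39 CPM, but they did overlap with control capsules (6.3 to 12.1 CPM). All other pairs of later groups overlapped too, except that the lowest affected capsule (8.44 CPM) lay just above the highest young ligament. The affected ligaments were at 9.41, 6.69, 21.9 and 6.58 CPM in adults and at 6.72, 12.9 and 6.63 CPM at 4 months.

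**Figure D4:**
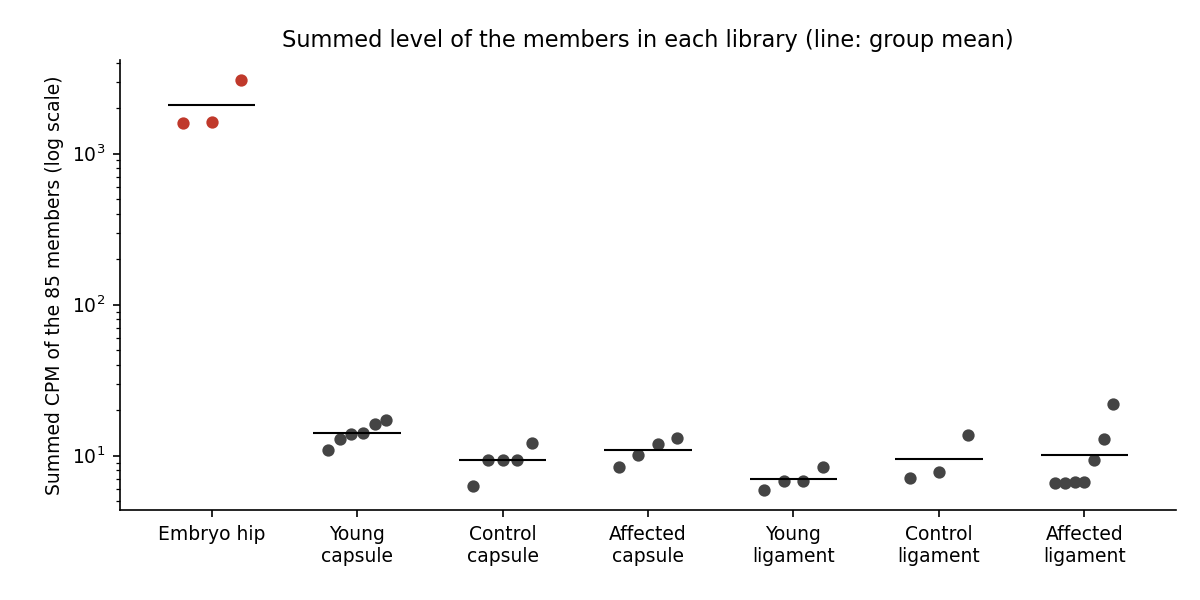
Summed CPM of the 85 genes in each library (points, log y axis) by group (x axis), with the group mean as a line. The 3 embryos lie between 1590 and 3050 CPM and the 29 later libraries between 5.96 and 21.9 CPM.

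Libraries differed in how much low-level signal they held in general. The 3934 low genes summed above for the embryos served as a background: each had a fragment after birth, every later group mean below 0.5 CPM and an embryonic mean below 5 CPM. This background summed to 637 CPM in the affected ligament with the highest embryonic sum, against a median of 254 CPM over all later libraries. Set against it, that ligament had 34.4 CPM of the embryonic genes per 1000 CPM of background, the median of the 23 libraries other than young capsule being also 34.4. Young capsules had 45 to 73.1 CPM per 1000, with a median of 66.2. The 23 other later libraries had 18 to 44.8 and did not overlap with young capsules, although the margin was narrow. The background itself had a lower median in young capsules, at 238 CPM (189 to 268) against 279 CPM (168 to 637) in the other later libraries. A lower background raises the ratio, and its part in the lack of overlap was not tested.

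By gene, 51 of the 85 had a higher mean in young than in control capsule, 29 a lower one, and 5 had 0 fragments in both. Of the background genes, 1299 were higher and 1621 lower. Between young capsule and young ligament, 59 embryonic genes were higher in capsule and 21 in ligament, and the background split 1615 to 1151; some of these dogs gave both tissues. In ligament the split was the other way, with 27 genes higher in young and 46 in control dogs (1137 and 1386 in the background). Young capsule was the highest later group for 29 of the 85 genes, more than any other group. The matching count over the background genes is not given here, so nothing particular to the embryonic genes is read from it.

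The higher residual sum of young than of control capsule was seen in the genes not weighted to embryo 3. In the even set, 21 of 28 genes had a higher mean in young than in control capsule and 7 a lower one. In the intermediate set the counts were 18 and 7. In the embryo 3 set they were 12 and 15. The 56 genes outside the embryo 3 set summed to 6.47 to 13.1 CPM in young capsules and 3.85 to 6.67 CPM in control capsules. The embryo 3 set summed to 2.73 to 4.39 CPM in young capsules and 2.45 to 6.57 CPM in control capsules. These sums carry no test, and the difference between the sets was not tested.

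**Figure D5:**
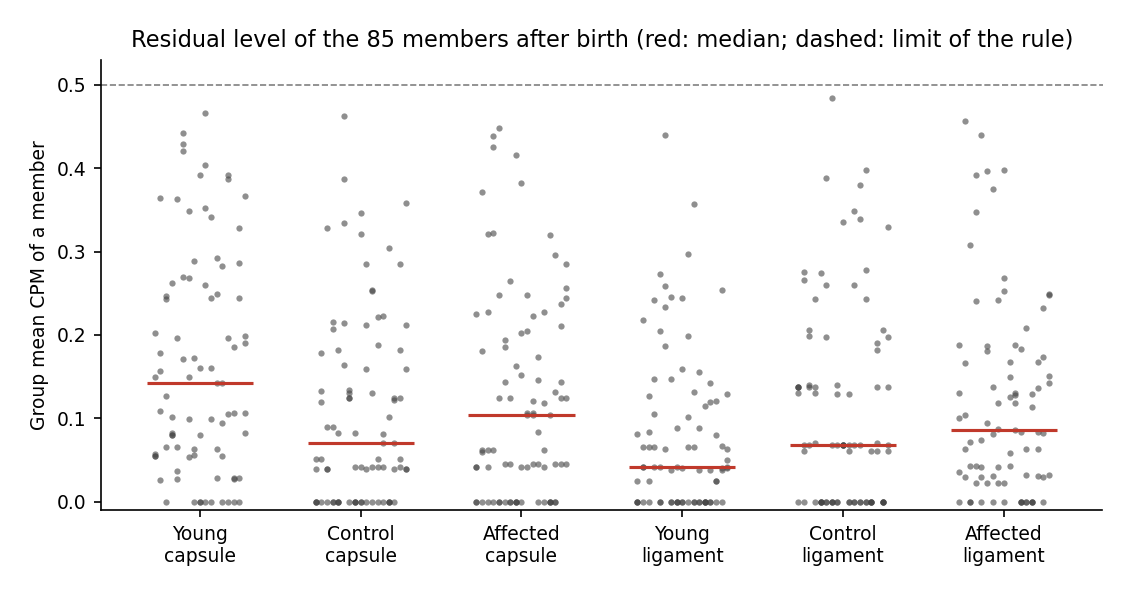
Mean CPM of each of the 85 genes (points) in each of the 6 postnatal groups (x axis), with the median in red and the 0.5 CPM limit of the rule dashed. The median is highest in young capsule, at 0.143 CPM, and lowest in young ligament, at 0.0415 CPM.

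Single genes were tested between postnatal groups, a contrast the rule did not use although it capped both means. Most embryonic genes had too few fragments: only 31 of the 85 had at least 10 fragments over young and control capsules, the minimum for testing. Between young and control capsule, 0 of these 31 passed an adjusted p of 0.05 in edgeR, while 32.5% of all 15861 genes tested were called. At an unadjusted p under 0.05, 4 of the 31 passed, against 43.0% of all genes tested, and DESeq2 called 0 of the 31 against 34.8% of all genes. The cap kept the fragments of these 31 genes few, so a call was hard to reach. Neither an absence of a difference nor a smaller one than in other genes is read from these shares. The median log2 difference of the 31 was 0.738 and 25 were positive, beside a median of 0.00334 over all genes tested. A gene this low reaches the minimum more easily through the group where it has more fragments, so these 2 figures are descriptions. The gene ranked 76 came nearest, with 10 fragments over 6 young capsules and 0 over 5 controls (log2 3.8, SE 1.38, edgeR adjusted p = 0.051). With every gene of at least 1 fragment tested, 2 of 80 were called higher in young capsule, against 13.3% of all 18560 genes in that fit, so nothing particular to the embryonic genes is read from them. They were the genes ranked 76 (adjusted p = 0.04) and 72 (9 against 0 fragments, adjusted p = 0.044). Both were even across the embryos, at 6.36, 5.88 and 4.85 CPM and at 5.39, 5.54 and 7.91 CPM. Leaving out 1 library changed the count, and the genes differed. Without control replicate 3 the gene ranked 45 was called, without control replicate 4 that ranked 14, and without young replicate 1 that ranked 51. Without young replicate 4, 2 were called, those ranked 76 and 45. In these fits 4352 to 5416 of all genes were called, of 15729 to 15772 tested, so nothing particular to the embryonic genes is read from these calls.

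In ligament, 6 embryonic genes could be tested between young and control dogs. None passed (0 of 6 in edgeR, 0 at an unadjusted p under 0.05), while 8.51% of 15257 genes were called and 24.3% had an unadjusted p under 0.05. Between affected and control dogs, none of the few embryonic genes with enough fragments for testing was called. All controls were adult while some affected dogs were 4 months old, so disease and age cannot be fully told apart. The rule kept both group means below 0.5 CPM, so a gene clearly raised in affected dogs could not be on the list. No absence of a difference is read from these tests. In capsule, 0 of 14 passed in edgeR, 0 at an unadjusted p under 0.05 and 0 in DESeq2. Of all 15712 genes, 0.185% were called, 6.48% had an unadjusted p under 0.05 and 0.897% were called in DESeq2. The 14 split evenly, 7 positive and 7 not, with a median log2 difference of -0.00115. In ligament, 0 of 12 passed in edgeR and 0 at an unadjusted p under 0.05, with 0 of 15706 genes called (0%), 1191 (7.58%) at an unadjusted p under 0.05 and 11 in DESeq2.

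Per length, the order of the embryonic genes changed. The gene ranked 8 by CPM came directly after those ranked 1 to 3, at 89.6 ± 40.9 FPKM (SD, n = 3), and short genes moved up. The genes ranked 23 and 31 stood at 57.5 ± 95.6 and 50.2 ± 18.3 FPKM, the first of them almost wholly in embryo 3. Relative length was taken from the deposited scaled fragments over FPKM. The embryonic genes had a median of 1.43 times that of the median gene, and other genes of at least 5 CPM in embryos 1.27 times. At an embryonic mean of 5 to 20 CPM the figures were 1.43 for 67 embryonic genes and 0.858 for 3792 others. The embryo 3 set was the longest, at 1.86, with 5 of 29 genes shorter than the median gene, against 1.15 and 14 of 28 in the even set. Length was not tested as a source of the difference between sets.

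No other group had such a list. With any of the 6 later groups in the place of the embryo, 0 genes met the same limits. The same was true of the young groups joined: 0 genes reached 5 CPM in either young tissue with every group mean outside the young groups below 0.5 CPM. Each later group shares its tissue with other later groups that had to stay low, also when the young groups are joined. Embryonic hip shares its tissue label with no other group. The counts of 0 are therefore not a like comparison with the embryo, and nothing is read from them. In the reverse direction, 81 genes lay below 0.5 CPM in embryos and reached 5 CPM in at least 1 later group. Of the 11642 genes at 5 CPM or more in embryos, 0.730% met the whole rule. A further 50 missed it through a single later group, which was young capsule for 30 of them, affected capsule for 11 and young ligament for 0.

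The list has no natural edge. The lowest embryonic means inside it were 5.06, 5.13 and 5.15 CPM, and the highest just outside were 4.92, 4.89 and 4.89 CPM. The highest later group means inside it were 0.484, 0.467 and 0.463 CPM, and the lowest just outside were 0.504, 0.505 and 0.507 CPM. Scaling also mattered, because TMM scaling lowered embryonic levels against later ones by 0.407 on the log2 scale. On that scale 67 genes met the rule, 66 of them among the 85, and 19 of the 67 were weighted to embryo 3.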

How the data were processed

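RNA was measured in 32 libraries. The tools named in the submitters' processing notes are TopHat2 2.0.13, Bowtie2 2.2, cutadapt 1.8 and Cuffdiff 2.2.1, with the build canFam3. Annotation release and strand setting: not given in the sources used here. Per the file headers, the deposited table gives estimated counts of fragments before scaling, a scaled fragment signal and FPKM for each gene and library. Of the estimated counts, 0.332% were not whole (more than 1e-06 off), and they were rounded for testing. The separate capsule and ligament tables were not used.

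CPM is 1000000 times the fragments over the library sum (2857235 to 9895143 fragments). Comparisons used edgeR 4.0.16 in R 4.3.3, with genes of at least 10 fragments over the libraries compared, TMM, the robust quasi-likelihood F test and Benjamini-Hochberg adjustment. DESeq2 1.42.0 was an alternative. On simulated data at these depths and for young against control capsule (15707 genes), edgeR called all 100 simulated 4-fold changes and 51 of the 100 simulated 2-fold ones. In young against control ligament (15085 genes) it called 100 and 23, in affected against control capsule (15542 genes) 98 and 41, and in affected against control ligament (15547 genes) 99 and 28. Recovery at the low levels of the embryonic genes after birth was not tested. Ratio intervals are exact 95% binomial ones.

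The members and tests were chosen with earlier results of these data known. Genes were named by a fixed rule: identifiers only of the 2 highest members, others by rank. Gene lists by symbol could not be applied. Fragments shared with near-identical or overlapping genes cannot be traced without names. Replicates within a group are different dogs, while some dogs gave both capsule and ligament.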

Additional observations from a re-analysis of the deposited data

Results flagged for a closer look

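Libraries that stood apart from their group were sought in 17 sets of 4 to 7 libraries, and 4 flags arose. For normally distributed values chance flags about 1 set in 20. That rate does not hold for sets with mostly 0 fragments: where all others are at 0, a single fragment is always flagged. The 4 flags are therefore not set against it. Affected ligament replicate 3 had a summed level of the embryonic genes of 21.9 CPM, with the next at 12.9 CPM and the lowest at 6.58 CPM. The same library stood apart for ENSCAFG00000007233, at 0.665 CPM on 3 fragments against 0.249 CPM in the next. Its sum of other low genes was also the highest, 637 CPM, as given beside the result. Affected capsule replicate 3 stood apart for the same gene at 0.168 CPM, which is 1 fragment against 0 in the others. Young capsule replicate 4 had a fragment in 29 of the 85 genes, where the others had 40 to 45. It was the shallowest young capsule, with 4330476 fragments, and the part of depth was not tested.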

How the results depend on the processing

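The number of embryonic genes depended on the limits. It was 85 as reported, 241 at an embryonic minimum of 2 CPM, 41 at 10 CPM, 38 at a limit of 0.25 CPM in later groups, 162 at 1 CPM, 21 with the limit in every single library, 39 with the minimum in each embryo, and 56 (24 shared) on deposited FPKM. Leaving out 1 library changed the count by -32 (without embryo 3, which left 53 genes) to 23 (without embryo 1), and it stayed at 83 to 90 where that library was a postnatal one. TMM and DESeq2 size factors gave 67 each. The 29 genes weighted to embryo 3 became 17 at 10-fold, 36 at 3-fold, 19 on TMM or size factor scaling, 10 at an embryonic minimum of 10 CPM and 35 at a limit of 1 CPM; these alternatives were added after seeing the data. The count of members called was 0 in the 4 comparisons and became 2 in young against control capsule with no filter beyond 1 fragment. With the filter, leaving out 1 library gave 0 to 2 there and 0 in the other comparisons. With filterByExpr no member was tested, and DESeq2 gave no adjusted p to members in ligament. With the replicate number as a block, 0 members were called in each comparison. Numbers are of different dogs and their deviations correlated at -0.451 to 0.544, so they pair nothing. All genes called went from 0 to 800 under the block and 11 in DESeq2 (affected ligament), from 29 to 7 under the block, 141 in DESeq2, 47 with no filter and 16 with age class (affected capsule), and from 1299 to 2001 in DESeq2 (young ligament); the cause was not tested. Leaving out 1 library gave 0 to 1, 4 to 54 and 627 to 1692 calls there. Few fragments after birth limit what can be seen.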
